A study of Homo sapiens with 6 samples.

Results

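Glutathione S-transferases were followed across 6 RNA-seq libraries of a lung adenocarcinoma line, 3 from a derivative resistant to osimertinib and 3 from its control. The 10 genes described here were taken by symbol, each matched through its Ensembl identifier. They are GSTA1, GSTA2 and GSTA4 of the alpha class, GSTM2, GSTM3 and GSTM4 of the mu class, GSTP1 (pi), GSTO1 (omega), GSTK1 (kappa) and the membrane-bound MGST1, out of 30330 genes in the tables. All 10 passed the filter on low values. They were chosen with the difference between the resistant and control libraries already known, so their differences are given as a description with no p-value.

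Both groups came from NCI-H1975, a human lung adenocarcinoma line with mutant EGFR. The resistant line, H1975/OSI, was selected by intermittent exposure to osimertinib, an inhibitor of mutant EGFR, at 0.03, 0.1, 0.3, 1 and 3 µM over 7 months, per the labels. It is a single derived line, and the labels do not say whether it is a clone or whether drug was present at harvest. The control libraries carry the name of the same line with no further treatment given. The labels do not say that the libraries of a group are separate cultures. The p-values therefore reflect spread among these libraries alone, and that spread may be technical. In bulk RNA, fewer cells of a type and less RNA per cell cannot be told apart.

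Glutathione transferases join the thiol of glutathione to electrophilic compounds, among them lipid peroxidation products and reactive drugs, and the conjugates are then exported and trimmed to mercapturates. The soluble enzymes fall into classes by sequence, with genes of a class often side by side on a chromosome. Many members are transcribed under NRF2, which KEAP1 holds in check, and GSTP1 is known as the main transferase of lung epithelium while GSTA1 and GSTA2 are best known from liver.

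The libraries held 15174126 to 16276518 reads in the resistant group and 15813497 to 16588479 reads in the control group. Values are normalized read counts, that is reads divided by 1 size factor per library. Resistant library 1 stood apart, with a chi-square per gene of 12.1 and 13.5 when set against resistant libraries 2 and 3, while those differed from each other by 2.42. All 6 epithelial markers were detected, with a summed level of 40167 to 46974 in resistant and 58676 to 61933 in control libraries. EPCAM, which differed most among them, averaged 17.6 in resistant and 379 in control libraries, a log2 difference of -4.36. The log2 differences of the others were -1.66 for CDH1, -1.18 for KRT19, -0.51 for KRT8, -0.41 for KRT18 and -0.06 for KRT7. Of 5 lung adenocarcinoma markers NKX2-1 and MUC1 had 100 or more normalized reads, while SFTPB and SFTPC were near 0. The 5 summed to 2716 to 3355 in resistant and 1447 to 1721 in control libraries. All 4 endothelial markers were in the tables, and their sum was 557 to 759 in resistant and 290 to 332 in control libraries, with VWF and KDR near 0. CDH5 averaged 579 in resistant and 126 in control libraries, and PECAM1 83.3 in resistant and 181 in control libraries. The 4 squamous markers summed to 55.1 to 68.3 in resistant and 225 to 268 in control libraries, nearly all of it TP63. Of 5 fibroblast markers 4 were in the tables, at 4815 to 5389 in resistant and 4427 to 5325 in control libraries, nearly all COL1A1. The part of these markers in the results was not tested.

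The transferase genes are shown first by sequence, since GSTA1 and GSTA2, the pair with the widest difference between the groups, are close copies. Their coding sequences, each 669 bases long, are 96.7% identical with 22 differing bases, and the longest identical run is 209 bases. The stretch from coding base 232 to 381 is printed because it holds 8 of the differences, in capitals, by which a read can be assigned to a gene (GENCODE 29 transcripts, 5′ to 3′).
GSTA1: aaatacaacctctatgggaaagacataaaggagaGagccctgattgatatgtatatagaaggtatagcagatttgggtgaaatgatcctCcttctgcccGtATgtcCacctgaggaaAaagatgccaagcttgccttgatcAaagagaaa
GSTA2: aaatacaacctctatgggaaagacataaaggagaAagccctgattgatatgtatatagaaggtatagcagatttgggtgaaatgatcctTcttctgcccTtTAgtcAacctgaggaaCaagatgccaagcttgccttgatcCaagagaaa
The bases in lower case are the same in both genes.

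The promoters of the same pair are as close as their coding sequences. Over the 300 bases from 250 before to 50 after the start (RefSeq, GRCh38.p14), GSTA1 at chr6:52803767-52804066 and GSTA2 at chr6:52763426-52763725, both on the minus strand, were 96% identical. Capitals mark the 12 positions that differ.
GSTA1: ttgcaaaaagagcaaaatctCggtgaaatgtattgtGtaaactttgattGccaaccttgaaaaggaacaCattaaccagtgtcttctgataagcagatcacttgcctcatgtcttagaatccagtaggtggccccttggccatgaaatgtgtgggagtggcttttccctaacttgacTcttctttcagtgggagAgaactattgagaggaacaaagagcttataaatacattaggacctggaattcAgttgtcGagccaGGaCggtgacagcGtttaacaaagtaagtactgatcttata
GSTA2: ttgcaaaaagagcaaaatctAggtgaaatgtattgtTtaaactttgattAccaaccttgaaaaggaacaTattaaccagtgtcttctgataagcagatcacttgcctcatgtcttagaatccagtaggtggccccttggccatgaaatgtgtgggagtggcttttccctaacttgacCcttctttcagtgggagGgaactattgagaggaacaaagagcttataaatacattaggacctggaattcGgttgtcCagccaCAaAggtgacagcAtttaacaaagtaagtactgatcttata
Counted from 1 at the 5′ end and written from GSTA1 to GSTA2, the differences are C21A, G37T, G50A, C70T, T178C, A195G, A247G, G254C, G260C, G261A, C263A and G273A. Every other pair of member promoters matched at 34% of bases or fewer when laid side by side without gaps. The letters TATAAA begin at position -30 from the start in both promoters. GTTAAT, part of the site of the liver factor HNF1, lies on the other strand in both, read as ATTAAC from -180 on the printed strand. Neither is particular to this pair. TATAAA also occurred in GSTO1 (other strand, from -216) and in MGST1 (-197). GTTAAT also lay on the other strand of MGST1, as ATTAAC from -56 and -45, or from -189 and -178 in an overlapping promoter. The windows of GSTA4, GSTM2, GSTM3, GSTM4, GSTP1 and GSTK1 held neither.

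Another set of promoters is shown for the core of the antioxidant response element, the site bound by NRF2 with a small MAF protein, searched as TGACNNNGC on both strands. It was found in the promoters of GSTP1 at chr11:67583562-67583861 (plus strand), GSTO1 at chr10:104254642-104254941 (plus strand) and GSTA4 at chr6:52995235-52995534 (minus strand), printed here with each match in capitals.
GSTP1: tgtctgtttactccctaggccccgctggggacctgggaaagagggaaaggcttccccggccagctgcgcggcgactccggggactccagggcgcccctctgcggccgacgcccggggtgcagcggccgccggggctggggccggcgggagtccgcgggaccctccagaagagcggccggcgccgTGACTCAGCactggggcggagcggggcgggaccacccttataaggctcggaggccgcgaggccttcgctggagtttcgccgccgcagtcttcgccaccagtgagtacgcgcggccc
GSTO1: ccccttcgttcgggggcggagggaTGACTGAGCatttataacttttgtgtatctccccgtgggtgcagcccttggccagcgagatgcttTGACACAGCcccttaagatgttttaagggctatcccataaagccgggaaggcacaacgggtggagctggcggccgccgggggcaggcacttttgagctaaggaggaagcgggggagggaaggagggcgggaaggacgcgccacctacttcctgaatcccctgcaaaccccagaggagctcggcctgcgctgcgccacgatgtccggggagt
GSTA4: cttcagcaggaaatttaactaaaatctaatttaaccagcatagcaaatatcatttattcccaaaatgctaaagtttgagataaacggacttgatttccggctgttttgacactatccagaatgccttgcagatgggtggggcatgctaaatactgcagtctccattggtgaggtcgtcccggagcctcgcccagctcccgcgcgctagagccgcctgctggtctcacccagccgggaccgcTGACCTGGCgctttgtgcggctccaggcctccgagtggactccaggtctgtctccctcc
The match lies at -66 in GSTP1, at -226 and -161 in GSTO1 and at -9 in GSTA4. The GSTP1 match overlaps TGANTCA, the site of AP-1, on both strands. MGST1 had a match at 31 bases after the start of 1 of its 3 promoters, and the windows of GSTA1, GSTA2, GSTM2, GSTM3, GSTM4 and GSTK1 held none. Of 35114 promoters of this length, 13.3% held TGACNNNGC, 7.71% TGANTCA, 11.5% TATAAA and 6.88% GTTAAT. A match is a description of letters, not evidence of binding.

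As a description, the limma threshold used for all genes (adjusted p under 0.05) counted 6 of the 10 genes as higher in resistant cells, the 3 alpha and 3 mu genes, and 2, GSTO1 and MGST1, as lower. Among all 24560 genes tested, 41.5% passed in either direction, 20.4% as higher and 21.1% as lower. The libraries of the groups did not overlap for 9 of the 10 genes, against 50.1% of all genes. The median log2 difference of the 10 genes was 0.95, beside 0.01 over all genes tested. Past the threshold and at least 2-fold different were 5 higher and 0 lower members, beside 7.86% and 5.72% of all genes, and GSTO1 at -0.96 came nearest to a 2-fold lower value. These counts follow from the choice of genes, and nothing is read from them. Without resistant library 1 the counts were 6 higher and 3 lower.

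**Figure D1:**
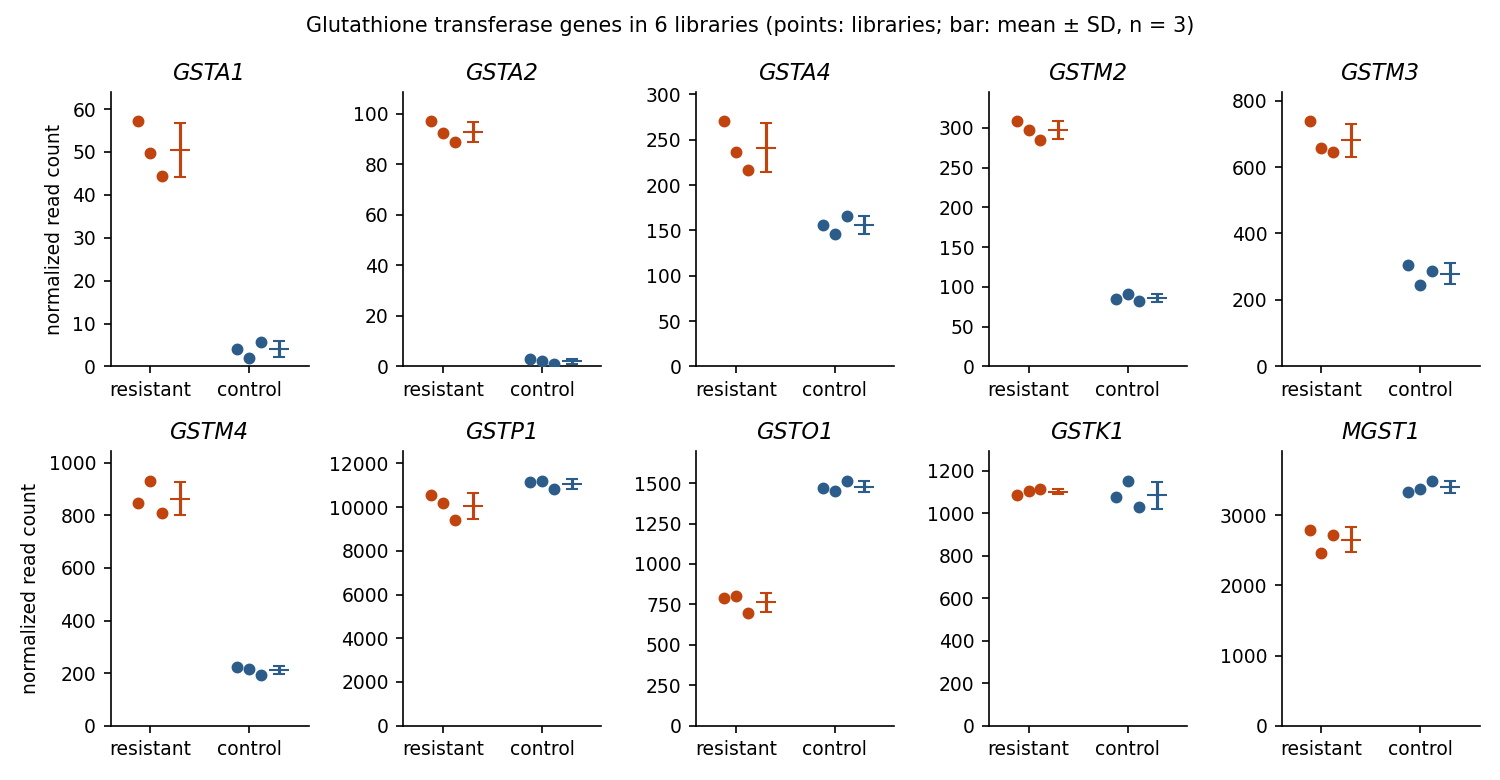
Normalized read counts of the 10 genes in each library (points, resistant left of control) with mean ± SD (bars, n = 3 per group), each panel from 0. The resistant points lie above the control points for GSTA1, GSTA2, GSTA4, GSTM2, GSTM3 and GSTM4, below them for GSTP1, GSTO1 and MGST1, and among them for GSTK1.

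Alpha class genes encode enzymes that reduce lipid hydroperoxides and, in the case of GSTA4, conjugate hydroxynonenal, an aldehyde from lipid peroxidation. GSTA1 (ENSG00000243955, chromosome 6, 52791664 to 52803910, minus strand) had 57.1, 49.8 and 44.4 normalized reads in resistant libraries 1, 2 and 3, and 4.11, 2.08 and 5.78 in control libraries 1, 2 and 3. Every resistant library lay far above every control library. The means were 50.4 ± 6.38 in resistant and 3.99 ± 1.85 in control libraries (SD, n = 3 each), a log2 difference of 3.43 ± 0.36 (SE). That difference also depends on the constant added before taking logs, and was 3.73 with 0.1 and 2.64 with 5. The control values correspond to 4, 2 and 6 reads, so control library 2 was under the floor of 3 reads. Over each group 155 resistant and 12 control reads were recovered, a depth-adjusted ratio of 12.5 with an exact 95% counting interval from 6.94 to 24.7.

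GSTA2 (ENSG00000244067, chromosome 6, 52750089 to 52763569, minus strand) had 96.9, 92.3 and 88.8 normalized reads in resistant libraries, and 3.08, 2.08 and 0.964 in control libraries. The control values correspond to 3, 2 and 1 reads, so the gene was at or under the floor of 3 reads in each control library. The log2 difference was 5.01 ± 0.35 (SE) and depends on the constant added before taking logs, reaching 5.57 with 0.1 and 3.80 with 5. From the 285 resistant and 6 control reads the ratio was 45.9 (95% counting interval 20.8 to 126). The hepatocyte markers in the tables, 3 of 4, summed to 2.77 to 7.89 in resistant and 2.05 to 5.78 in control libraries, and APOA1 and APOB were at 0 in at least 1 library of each group.

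The reads of the pair were divided differently in the groups. GSTA2 had 1.70, 1.85 and 2.0 reads per GSTA1 read in resistant libraries, and 0.75, 1.00 and 0.167 in control libraries. The control ratios rest on 18 reads in all. With 100-base windows, 11.96% of the GSTA1 transcript (110 of 920 windows) and 9.06% of the GSTA2 transcript (110 of 1214) were identical to the other gene, so reads from these stretches could be counted for either. With 50-base windows 28.9% of the GSTA1 transcript was shared with other genes, 232 windows with GSTA2 and 44 with GSTA5. For GSTA2 it was 18.4%. The sum of both genes, which does not depend on that division between them, was 143 ± 10.4 in resistant and 6.03 ± 1.64 in control libraries (SD, n = 3 each).

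GSTA4 (ENSG00000170899, chromosome 6, 52977948 to 52995378, minus strand) had 270.3, 236 and 217 normalized reads in resistant libraries, and 156, 147 and 166 in control libraries. The groups did not overlap, but the gap was narrow beside that of GSTA1 and GSTA2. This gave a log2 difference of 0.62 ± 0.12 (SE), or 0.54 without resistant library 1. GSTA4 shares no 100-base window with another gene, and its coding sequence is 65.6% identical to that of GSTA1 and 67.6% to that of GSTA2.

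Mu class genes lie in a cluster on chromosome 1, and their enzymes conjugate a wide range of aromatic and epoxide electrophiles. GSTM4 (ENSG00000168765, 109656081 to 109674836, plus strand) had 847, 932 and 809 normalized reads in resistant libraries, and 222, 216 and 193 in control libraries. The lowest resistant library was well above the highest control library. Means were 863 ± 63.1 in resistant and 210.2 ± 15.4 in control libraries, a log2 difference of 2.03 ± 0.09 (SE).

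GSTM2 (ENSG00000213366, 109668022 to 109709551, plus strand) had 308, 297 and 285 normalized reads in resistant libraries, and 85.2, 91.4 and 81.9 in control libraries. The libraries within each group were close together and the groups were wide apart. On the log2 scale the difference was 1.77 ± 0.13 (SE). GSTM2 overlaps GSTM4 on the same strand, and 40.7% of its transcript's 100-base windows (664 of 1631) occur in another gene, 475 of them in GSTM1 and 189 in GSTM4. GSTM1 and GSTM5 were not analysed here, so how far the GSTM2 value holds reads of its paralogs was not tested. For GSTM4 the shared part was 4.49% (59 of 1313 windows), taken from 1 transcript of 1412 bases, while its longest has 3990. With 50-base windows it was 18.6% (254 of 1363), with 231 windows found in GSTM1 and 123 in GSTM2, and 48.7% for GSTM2. How far the GSTM4 value holds reads of its paralogs was not tested either. The coding sequences of GSTM2 and GSTM4 were 86.3% identical.

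GSTM3 (ENSG00000134202, 109733932 to 109741038, minus strand), the cluster's member on the opposite strand, had 737, 658 and 644 normalized reads in resistant libraries, and 306, 246 and 286 in control libraries. Again no control library reached the lowest resistant one. The log2 difference was 1.28 ± 0.10 (SE). Its coding sequence was 74.9% identical to that of GSTM4 and 70.4% to that of GSTM2. The antisense gene that overlaps it had 0.308 normalized reads in resistant and 1.01 in control libraries. Summed over GSTM2, GSTM3 and GSTM4, the mu class had 1840 ± 87.7 normalized reads in resistant and 576 ± 32.3 in control libraries (SD, n = 3 each).

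GSTP1, the pi class enzyme, was the member with the most reads in both groups. GSTP1 (ENSG00000084207, chromosome 11, 67583595 to 67586656, plus strand) had 10572, 10174 and 9398 normalized reads in resistant libraries, and 11168, 11209 and 10812 in control libraries. The resistant libraries lay below the control libraries, with resistant library 1 nearest to them. The log2 difference was -0.14 ± 0.06 (SE), and it came to 0.01 with quantile normalization, to -0.27 with median centring of each library and to -0.18 without resistant library 1. Median centring moved the median of all genes by -0.13, which is about the size of the GSTP1 difference.

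GSTO1, an omega class enzyme that reduces mixed disulfides and dehydroascorbate, was lower in resistant cells by more than any other member. GSTO1 (ENSG00000148834, chromosome 10, 104235356 to 104267459, plus strand) had 791, 799 and 696 normalized reads in resistant libraries, and 1468, 1451 and 1515 in control libraries. The highest resistant library was far below the lowest control library. Means were 762 ± 57.2 in resistant and 1478 ± 33.3 in control libraries, a log2 difference of -0.96 ± 0.07 (SE).

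MGST1, a trimeric enzyme of the endoplasmic reticulum and outer mitochondrial membrane with peroxidase activity, was lower in resistant cells by less. MGST1 (ENSG00000008394, chromosome 12, 16347142 to 16609259, plus strand) had 2791, 2455 and 2714 normalized reads in resistant libraries, and 3327, 3380.3 and 3493 in control libraries. The groups did not overlap. On the log2 scale the difference was -0.36 ± 0.07 (SE). MGST1 overlaps part of LMO3 on the opposite strand, and LMO3 averaged 8.12 in resistant and 11.7 in control libraries.

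GSTK1, the kappa class enzyme of mitochondria and peroxisomes, was the member whose groups overlapped. GSTK1 (ENSG00000197448, chromosome 7, 143244093 to 143270854, plus strand) had 1087, 1102 and 1112 normalized reads in resistant libraries, and 1074, 1152 and 1026 in control libraries. All 3 resistant values fell between the lowest and the highest control values. The log2 difference was 0.02 ± 0.07 (SE), and it turned to -0.11 with median centring and to -0.02 without control library 3.

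Taken as a family, the 10 genes made up nearly the same share of all reads in the groups, 0.110 ± 0.00261% in resistant and 0.110 ± 0.000559% in control libraries (SD, n = 3 each). Within that share the composition differed. GSTP1 held 59.8 ± 0.990% of the members' reads in resistant and 62.3 ± 0.671% in control libraries, and MGST1 15.8 ± 1.17% in resistant and 19.1 ± 0.636% in control libraries. The other 8 genes together held 23.9, 24.8 and 24.3% in resistant libraries, and 18.6, 18.5 and 18.6% in control libraries. GSTM4 held 5.14 ± 0.370% in resistant and 1.18 ± 0.0773% in control libraries. These shares are of reads, and long transcripts weigh more in them.

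The order of levels was set per length, as normalized reads per kb of gene length in the tables. GSTP1 stood first in both groups, at 5258 ± 312 in resistant and 5789 ± 115 in control libraries, and no library of another member came near. GSTO1 followed with 451 in resistant and 874 in control libraries, then MGST1 with 357 in resistant and 457 in control libraries, and GSTK1 with 260 in resistant and 256 in control libraries. Next in resistant libraries came GSTM4 at 150, GSTM3 at 143, GSTA4 at 111, GSTA2 at 70.6, GSTA1 at 49.5 and GSTM2 at 32.6, where the libraries of GSTM4 and GSTM3 overlapped. In control libraries GSTA4 at 71.8 came before GSTM3 at 58.8, GSTM4 at 36.6 and GSTM2 at 9.46, and GSTA1 at 3.91 overlapped GSTA2 at 1.55.

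With coding length in place of the tables' gene length the order below GSTP1 changed. MGST1 then stood next, at 5670 per coding kb in resistant and 7265 in control libraries. GSTM4 at 1313 and GSTK1 at 1296 overlapped in resistant libraries, as did GSTO1 at 1050 and GSTM3 at 1003, whereas in control libraries GSTO1 at 2036 and GSTK1 at 1277 stood well above GSTM3 at 412 and GSTM4 at 320. GSTA1 and GSTA2 were the lowest of the 10 genes in both groups, at 75.4 and 138 in resistant libraries and 5.96 and 3.05 in control libraries.

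**Figure D2:**
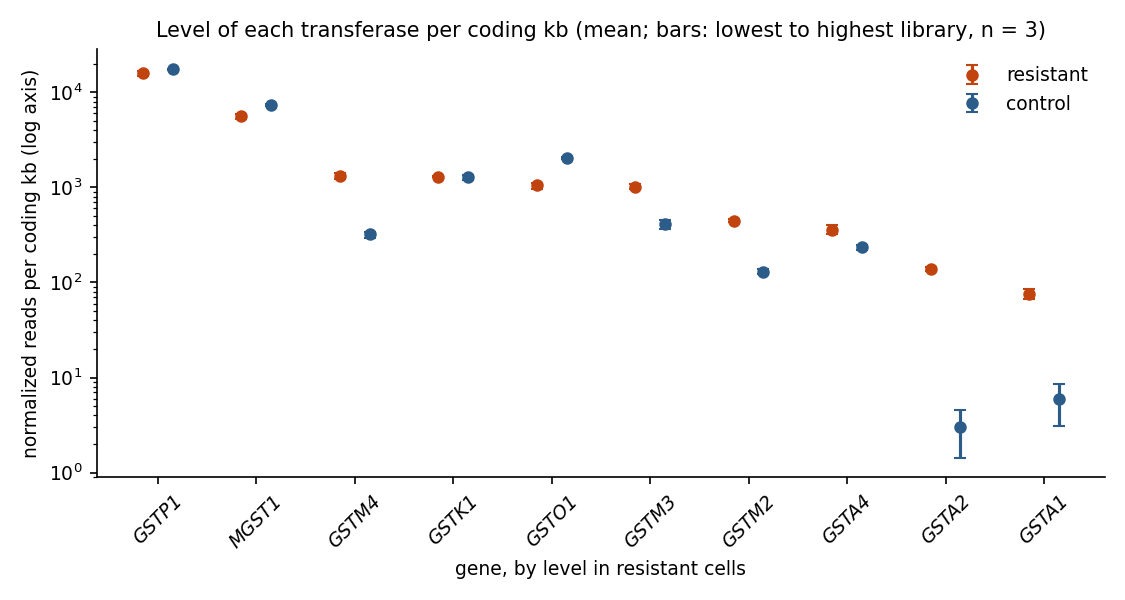
Level of each gene in normalized reads per coding kb on a log axis, resistant left of control for each gene, genes ordered by their level in resistant cells. Points are means of 3 libraries and bars run from the lowest to the highest library. GSTP1 stood first in both groups, at 15873 in resistant and 17477 in control libraries, and the distance between the groups was widest for GSTA2.

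Within the resistant group the members tended to stand in the same order of libraries. Resistant library 1 had the highest value of 7 of the 10 genes, and resistant library 3 the lowest of 8. Among control libraries no library was highest for more than 4 genes, while control library 3 was lowest for 5 and control library 2 for 4. The same count was not made over all genes, so whether the order is particular to the members was not tested. Leaving out resistant library 1 moved the member differences by small amounts, to 3.34 for GSTA1, 4.97 for GSTA2, 1.75 for GSTM2, 1.22 for GSTM3, 2.04 for GSTM4, -0.98 for GSTO1 and -0.40 for MGST1.

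Genes with the profile most like that of GSTA2, the member with the largest positive difference, were sought by the Euclidean distance between log2 profiles over the 6 libraries, each centred on its own mean, among 15295 protein-coding genes. COL1A2, a collagen I chain, was nearest at a distance of 0.740, with 29275 normalized reads in resistant and 698 in control libraries. FIBIN at 0.807 and TMPRSS15 at 0.862 followed, with 29.5 and 27.9 normalized reads in resistant libraries and no reads in control libraries. The log2 differences of COL1A2, FIBIN and TMPRSS15 were 5.39, 4.92 and 4.84, beside 5.01 for GSTA2, so the distance mostly reflects the size of the group difference. With few control reads the GSTA2 profile also depends on the constant added before taking logs. Whether another constant gives the same nearest genes was not tested. For GSTO1 the nearest were ENTPD6 at 0.0961, with 858 in resistant and 1654 in control libraries, SMURF2 at 0.105, with 450 in resistant and 888 in control libraries, and ENSG00000258472 at 0.112, with 37.1 in resistant and 72.2 in control libraries.

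The other transferase and related membrane genes on a list of 17 did not move one way. Of the 10 that were tested 3 were higher and 3 lower, with a median log2 difference of 0.03, while 7 (GSTA3, GSTA5, GSTM1, GSTM5, GSTT1, GSTT4 and HPGDS) were not analysed here. The calls made up 30% of the tested list in each direction, beside 20.4% higher and 21.1% lower among all genes. GSTO2, the neighbour and paralog of GSTO1, had 194, 185 and 190.4 normalized reads in resistant libraries, and 521, 578 and 501 in control libraries, all resistant libraries lying below all control libraries. It fell by 1.48 on the log2 scale (SE 0.10, limma adjusted p = 1.88e-11), and GSTO1 had 4.02 ± 0.34 reads per GSTO2 read in resistant and 2.78 ± 0.258 in control libraries. PTGES, a prostaglandin E synthase related to MGST1, fell to 824 ± 58.9 in resistant, against 1588 ± 103 in control libraries (log2 difference -0.95, limma adjusted p = 3.66e-10).

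The 3 that rose were GSTZ1, MGST2 and MGST3. GSTZ1, a zeta class enzyme of tyrosine breakdown, had 842 ± 29.6 normalized reads in resistant and 522 ± 35.9 in control libraries (log2 difference 0.69, limma adjusted p = 1.80e-07, higher in 3 of 3 resistant libraries); it overlaps POMT2 on the opposite strand. MGST2, a microsomal enzyme that also makes leukotriene C, had 198 ± 2.69 in resistant and 116 ± 2.69 in control libraries (0.76, limma adjusted p = 3.06e-05), and overlaps MAML3 on the opposite strand. MGST3 had 1730.5 ± 47.9 in resistant and 1404 ± 47.2 in control libraries (0.30, limma adjusted p = 6.33e-04).

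GSTCD, named for a domain like that of transferases, was called lower by a small amount, with 188 ± 32.5 in resistant and 238 ± 22.6 in control libraries and overlapping groups (log2 difference -0.35, limma adjusted p = 0.0363). The call ended without resistant library 1 (-0.23) or 2 (-0.35) and without control library 2 (-0.32) or 3 (-0.30), and also with DESeq2 and with limma without trend. GSTT2B had 495 ± 20.7 in resistant and 506 ± 65.3 in control libraries, and its near-identical copy GSTT2 4.86 ± 0.822 in resistant and 4.96 ± 3.22 in control libraries, so the split of reads between them is uncertain. LTC4S (4.24 in resistant, 9.15 in control) and ALOX5AP (3.65 in resistant, 1.65 in control), of leukotriene synthesis, had few reads and did not pass the test.

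Genes that make, recycle and use glutathione were mixed, with more lower than higher. Of 59 listed genes 54 were tested, and 13 were higher, 21 lower and 20 not past the threshold, with a median log2 difference of -0.13 beside 0.01 over all genes. Without resistant library 1 the counts were 14 higher and 23 lower, and with median centring 8 higher and 26 lower. The higher calls made up 24.1% of the tested list, beside 20.4% of all genes, and the lower calls 38.9%, beside 21.1%.

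**Figure D3:**
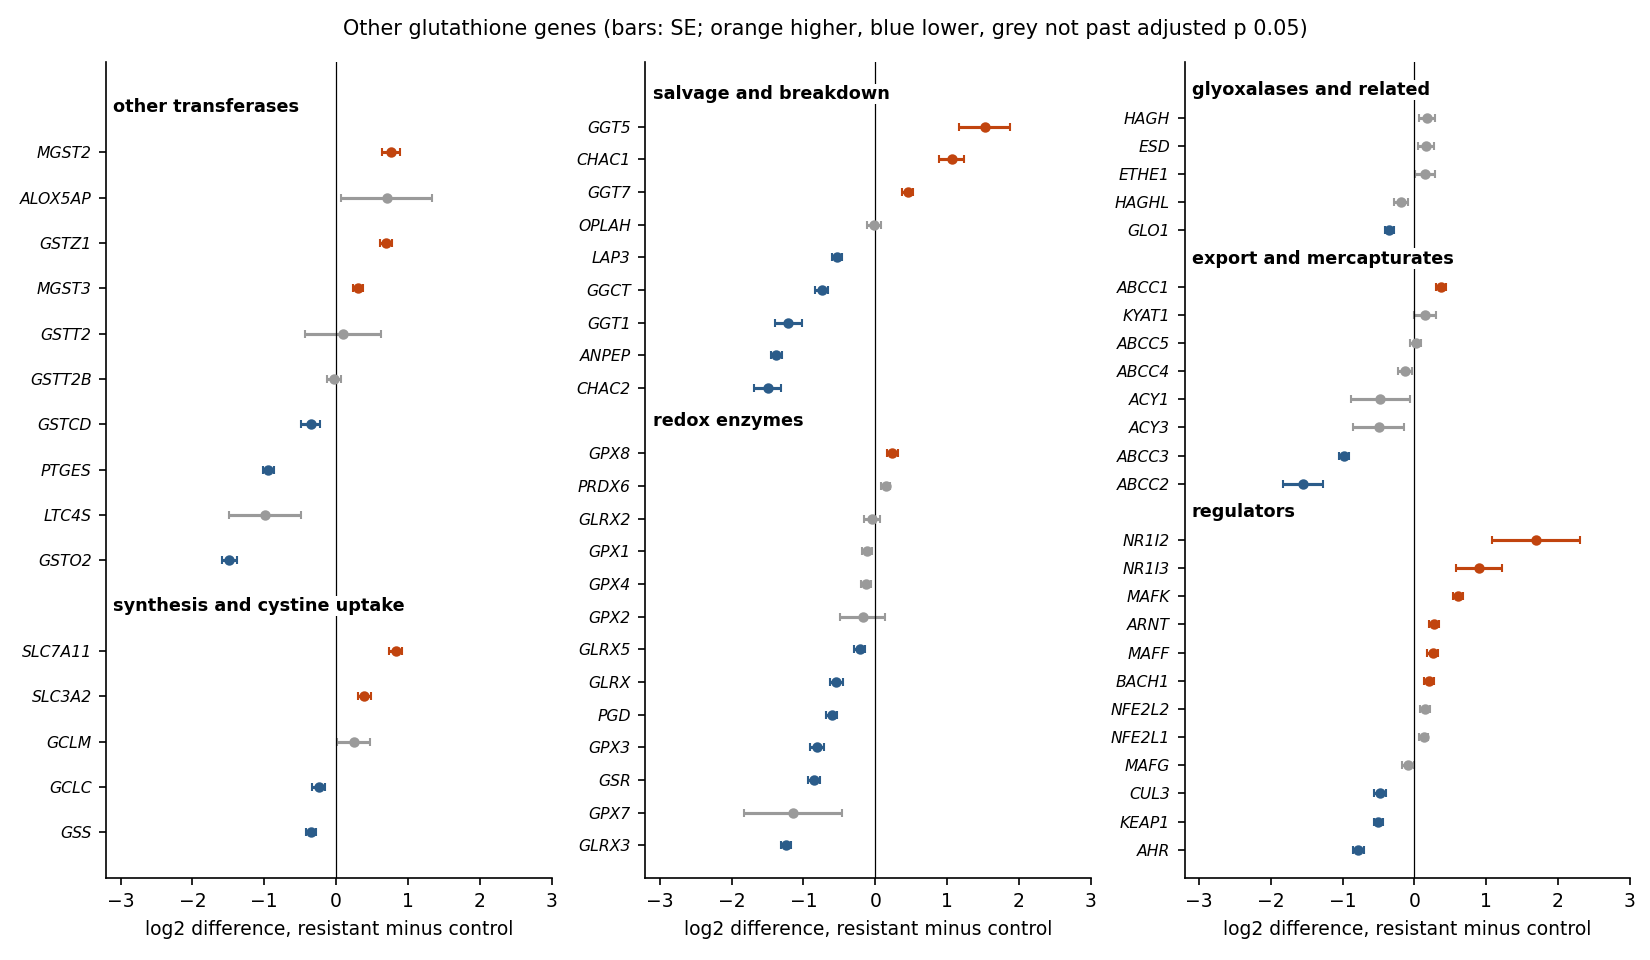
Log2 difference, resistant minus control, of the tested transferases outside the 10 genes and of 52 tested glutathione pathway genes by role, with SE bars from 3 libraries per group. Orange marks genes higher past an adjusted p of 0.05, blue genes lower and grey genes not past it. Most redox enzymes lie left of 0, and regulators lie on both sides.

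In glutathione synthesis both chains of the cystine importer rose. SLC7A11 had 994, 749 and 779 normalized reads in resistant libraries, and 471, 479 and 456 in control libraries (log2 difference 0.83, limma adjusted p = 1.15e-07), and its partner SLC3A2 had 4023 ± 662 in resistant and 3038 ± 90.2 in control libraries (0.39, limma adjusted p = 0.0012). Resistant library 1 was the highest for both. GSS, glutathione synthetase, fell to 1029 ± 44.5 in resistant, against 1310.0 ± 18.2 in control libraries (-0.35, limma adjusted p = 2.26e-04). GCLC, the catalytic subunit of the rate-limiting ligase, was called lower at -0.24 (limma adjusted p = 0.0259), a call lost without any of the 3 control libraries or resistant library 2, with DESeq2, under limma without trend and after quantile normalization. GCLM, the modifier subunit, had 717, 398 and 447 in resistant libraries, and 414, 394 and 471 in control libraries. Its difference of 0.24 was not past the threshold and came to -0.01 without resistant library 1.

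Of 9 tested genes of glutathione breakdown and salvage 3 were higher and 5 lower. ANPEP, an aminopeptidase that can split cysteinylglycine, fell to 2579 ± 290.0 in resistant, against 6698 ± 521 in control libraries (log2 difference -1.38, limma adjusted p = 1.58e-12). CHAC2, which degrades cytosolic glutathione, fell by 1.50, GGCT, which acts on gamma-glutamyl amino acids, by 0.75, and LAP3, a leucine aminopeptidase, by 0.53 on the log2 scale. GGT1, the main gamma-glutamyl transferase at the cell surface, fell to 51.1 ± 13.0 in resistant, against 117 ± 7.73 in control libraries. The genes that rose were GGT5 (23.3 ± 3.67 in resistant, 7.39 ± 0.280 in control), GGT7 (log2 difference 0.45) and CHAC1, a stress-induced glutathione-degrading enzyme (1.06, with 232 in resistant library 1 against 155 and 141 in the other two).

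Among 14 redox enzymes 7 were lower and 1 higher. GLRX3, a glutaredoxin of iron-sulfur metabolism, fell to 811 ± 34.1 in resistant, against 1916 ± 58.0 in control libraries (log2 difference -1.24, limma adjusted p = 6.40e-13). GSR, which regenerates reduced glutathione, had 449.7, 478 and 529 normalized reads in resistant libraries, and 855, 889.5 and 879.9 in control libraries, and fell by 0.85 (limma adjusted p = 8.09e-09). PGD, an enzyme of the pentose phosphate pathway, fell by 0.61 and the secreted peroxidase GPX3 by 0.81 on the log2 scale. GLRX fell by 0.54. GLRX5 was called at -0.21 and GPX8, the gene that was higher, at 0.24, and both calls were lost without control library 1 or 2, that of GLRX5 also without resistant library 3. GPX4, which reduces lipid hydroperoxides in membranes, had 8288, 7286 and 6585 in resistant libraries, and 8216, 8053 and 7791 in control libraries, and did not pass the test (-0.12, limma adjusted p = 0.169), although it was called at -0.21 without resistant library 1 and also with median centring.

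Among 5 glyoxalases and related genes GLO1, which forms lactoylglutathione from methylglyoxal, fell to 2975 ± 54.6 in resistant, against 3791 ± 297 in control libraries (log2 difference -0.35, limma adjusted p = 1.33e-04), and the other 4 did not pass the test. Among 9 genes of conjugate export and mercapturate formation 1 was higher and 3 lower. ABCC1, an exporter of glutathione conjugates, rose to 1805 ± 26.8 in resistant, against 1402 ± 97.0 in control libraries (0.37, limma adjusted p = 1.18e-04). The related exporters ABCC2 and ABCC3 fell, by 1.55 with 24.6 ± 11.3 in resistant and 68.9 ± 2.87 in control libraries, and by 0.98 with 1111 ± 37.3 in resistant and 2201 ± 205 in control libraries.

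The regulators known to act on transferase genes differed in direction. NFE2L2, which encodes NRF2, had 1665, 1780.4 and 1916 normalized reads in resistant libraries, and 1573, 1631 and 1642 in control libraries. The difference of 0.14 ± 0.07 (SE) was not past the threshold (limma adjusted p = 0.101), but was called at 0.19 without resistant library 1 and at 0.21 with quantile normalization. In the other direction, median centring moved the median of all genes by -0.13, which is about the size of the NFE2L2 difference. KEAP1, which targets NRF2 for degradation, fell to 1849.8 ± 56.5 in resistant, against 2618 ± 63.2 in control libraries (-0.50, limma adjusted p = 6.09e-07), and its ubiquitin ligase partner CUL3 fell by 0.48. MAFK, a small MAF partner of NRF2, rose to 1312 ± 54.8 in resistant, against 861 ± 51.4 in control libraries (0.61, limma adjusted p = 2.87e-07), and MAFF rose by 0.26. BACH1, a repressor at the same sites, was called at 0.20, a call lost without resistant library 1 or 3 or control library 1 or 2 and with median centring.

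AHR, the receptor for aromatic hydrocarbons, fell to 1970.1 ± 197 in resistant, against 3380.1 ± 245 in control libraries (log2 difference -0.78, limma adjusted p = 7.41e-09), while its partner ARNT was called higher at 0.28. The xenobiotic receptors NR1I2 and NR1I3, known for control of alpha class genes in liver, had few reads: NR1I2 had 5.54 ± 1.21 in resistant and 1.35 ± 1.58 in control libraries, and NR1I3 28.2 ± 1.47 in resistant and 15.4 ± 5.61 in control libraries. Both were called higher (1.69 and 0.90), and both calls were lost without resistant library 2 and with DESeq2. The NR1I2 call also ended without control library 2 or 3 or resistant library 3, and the NR1I3 call without control library 1. The calls of ARNT, MAFF and BACH1 ended with median centring, at 0.14, 0.12 and 0.07, and that of MAFF also without control library 3 (0.21).

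Genes around the members were compared locus by locus, taking the nearest 2 tested protein-coding genes on each side that are no transferases. Of 24 neighbours 9 were higher and 9 lower, with a median log2 difference of -0.10 (5 higher and 9 lower with median centring). The main calls made up 37.5% of the neighbours in each direction, beside 20.4% higher and 21.1% lower among all genes tested. All 4 around the alpha cluster were higher, namely TRAM2 (0.33), TMEM14A (1.13, with 825 ± 170.2 in resistant and 372 ± 11.7 in control libraries), CILK1 (0.35) and FBXO9 (0.24). Within 1 Mb of an alpha member 7 of 11 genes were higher and 2 lower, with a median of 0.34. With median centring and with limma without trend TRAM2 and FBXO9 lost their calls. TRAM2 also lost its call without control library 2 or 3, and FBXO9 without control library 1 or resistant library 2 or 3. The log2 differences of GSTA1 and GSTA2 were larger than those of all 11. GCLC, described above, also lies within 1 Mb of the alpha cluster and is among the genes that were lower there.

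Around the mu cluster AMPD2 (0.60), CSF1 (0.74) and AHCYL1 (0.21) were higher, and within 1 Mb 9 of 30 genes were higher and 6 lower, with a median of -0.02. The counts at each locus stand beside 20.4% higher and 21.1% lower among all genes tested. Around the omega pair SFR1 fell to 78.6 ± 18.2 in resistant, against 293 ± 21.5 in control libraries (log2 difference -1.91, limma adjusted p = 5.09e-10), and CFAP43 (-1.01) and ITPRIP (-0.72) also fell, while CFAP58 was higher at 1.39. Of 18 genes within 1 Mb of GSTO1 11 were lower and 2 higher, with a median of -0.83, beside -0.96 for GSTO1 and -1.48 for GSTO2. All 4 neighbours of GSTP1 were lower, among them NDUFV1 (-0.47), CDK2AP2 (-0.36) and PITPNM1 (-0.21), and 21 of 45 within 1 Mb were lower and 5 higher, with a median of -0.28. The neighbours of GSTK1 called were TMEM139, at 3.96 ± 1.83 in resistant and 0.643 ± 1.11 in control libraries, and CASP2 (-0.31), and the neighbour of MGST1 called was STRAP (-0.20). Without control library 2 the calls of AHCYL1, PITPNM1, STRAP and TMEM139 were lost, and STRAP also lost its call without resistant library 2. The TMEM139 call, on few reads, was lost as well without control library 1 or resistant library 1 or 3, and with edgeR, DESeq2 and limma-voom.

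**Figure D4:**
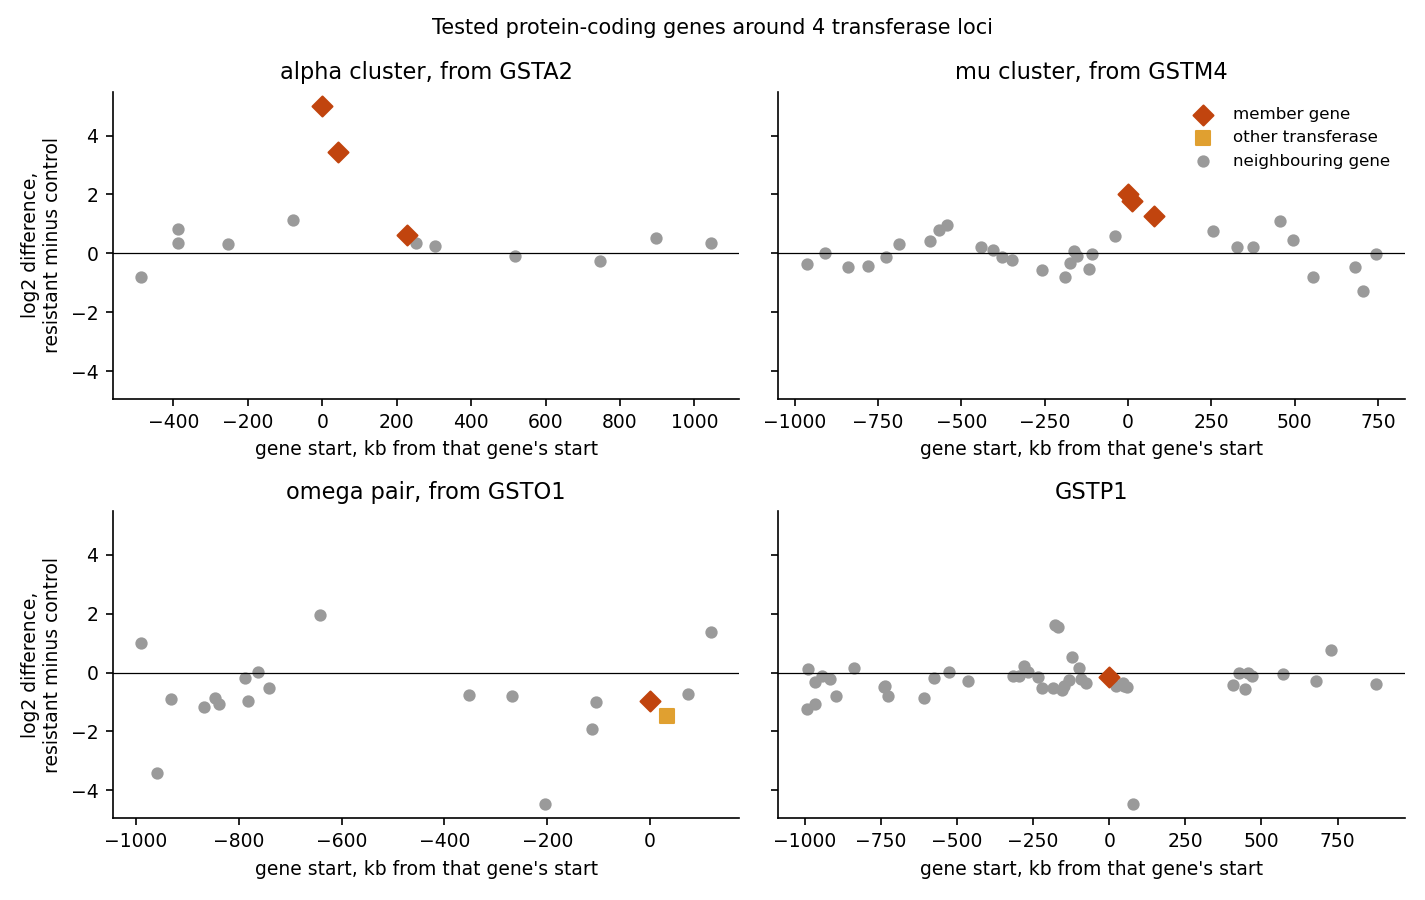
Log2 difference, resistant minus control, of tested protein-coding genes by the distance of their start from a transferase gene, in kb, around the alpha, mu and omega loci and GSTP1 (diamonds, the genes described here; squares, another transferase; circles, neighbours). The alpha and mu diamonds lie above most circles nearby, whereas around GSTO1 most circles lie below 0 together with GSTO1 and GSTO2.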

How the data were processed

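RNA-seq libraries of 3 resistant and 3 control samples were analysed, made from 1.5 µg total RNA, per the labels. The labels name more than 1 library kit, and strand use in counting was not stated there. The authors deposited a normalized signal per gene and library and, per the file headers, a gene length in bases. GRCh38 was the build, per the submitters' processing notes. Aligner, counter and normalization tool: not given in the sources used here. Every deposited signal value (100%) was a whole multiple of its library's step, within 0.001 reads, so whole reads were recovered by dividing by it. Depth was 15174126 to 16588479 reads per library, and counting intervals (95%, exact) and the floor of 3 reads cover counting error only.

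As the deposited values were normalized, the test was limma-trend (limma 3.58.1, R 4.3.3, robust, two-sided) on log2(value + 1) for the 24560 genes that reached 1 in 3 or more libraries, with Benjamini-Hochberg adjustment over all of them and a threshold of 0.05. Differences are resistant minus control on that scale, which understates the change of low genes. Symbols were matched for 30078 of 30330 genes, and 30325 had the same start and end in GENCODE 29. Promoters came from RefSeq, GRCh38.p14, for all 10 genes. Alternatives were quantile normalization, median centring, other filters and pseudocounts, limma without trend, edgeR 4.0.16, DESeq2 1.42.0 and limma-voom on recovered reads, a replicate block, leaving out each library, other numbers of neighbours and other lengths. The members and lists were chosen with earlier results of these data known. The naming rule took all members, all other tested transferases, from each pathway list the 4 smallest adjusted p and every gene of a direction with 3 or fewer calls, NFE2L2, KEAP1, BACH1, and the 3 genes most like GSTA2 and GSTO1. It also took neighbours of a direction with 5 or fewer calls or overlapping a member. The other genes named (GCLM, GGT1, PGD, GLRX, GLRX5, GPX4, MAFF, ARNT, NR1I2, NR1I3 and the neighbours) were chosen after their values were seen. The lists' counts include 2 genes whose own values are not reported here. The fit was also run on simulated reads with the same dispersion for every gene. That setting is simpler than these libraries, so nothing about the real calls is read from it.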

Additional observations from a re-analysis of the deposited data

How the results depend on the processing

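The counts of members and of other transferases were within 1.5 times of the main count under every alternative run: 6 members were higher in all, and 2 or 3 lower. GSTP1 was the member that joined the lower count, with limma-voom, median centring, no filter and without resistant library 1. For the pathway genes the count of 13 higher became 6 with limma without trend and 8 with median centring, and ran from 10 to 14 with a library left out, while the 21 lower ran from 19 to 23. For the neighbours the 9 higher became 5 with limma without trend, 5 with median centring, 5 with 1 neighbour on each side and 18 with 5, and the 9 lower became 4, 9, 4 and 19. Within 1 Mb, chosen after seeing the data, 27 were higher and 45 lower. With a library left out the neighbours ran from 6 to 8 higher and 6 to 9 lower. Other neighbour numbers compare fewer or more genes; for the other settings the cause was not tested. Over all genes the 5010 higher ran from 4321 to 4873 and the 5194 lower from 4408 to 5325 with a library left out. With median centring 35.8% of calls were higher (3713 higher, 6666 lower), against 49.1% in the main setting.

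Signs turned for genes with no call. GSTT2, 0.09 in the main setting, was -0.0364 with DESeq2, -0.0401 with edgeR, -0.0412 with median centring and -0.0414 with quantile normalization, and ran from -0.12 (without control library 1) to 0.51 with a library left out. GSTT2B, -0.03, was 0.0102 with quantile normalization and ran from -0.13 to 0.0497 (without control library 3). GCLM, 0.24, ran from -0.0117 (without resistant library 1) to 0.41. Replicate numbers did not pair the libraries (correlations of same-numbered deviations -0.00148, 0.000115 and 0.00671), and with the replicate block 10175 genes were called against 10204 without it, with no change in the member counts. GSTA1 and GSTA2 in control cells rest on 12 and 6 reads, so their differences are imprecise.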
